A study of Homo sapiens with 4 samples.

Results

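Tubulins are the protein subunits of microtubules, and stathmin is a small protein that binds free tubulin. Of the 57992 genes in the count table, 10 were taken by symbol: the alpha-tubulin genes TUBA1A, TUBA1B, TUBA1C and TUBA4A, the beta-tubulin genes TUBB, TUBB2A, TUBB4B and TUBB6, the gamma-tubulin gene TUBG1 and the stathmin gene STMN1. The data are poly(A) RNA-seq of MOLM13, an established human acute myeloid leukaemia cell line, in a derivative labelled VEN-R, with 4 libraries in all. The series title names resistance to venetoclax, a BCL2 inhibitor. The PRMT9 shRNA group (2 libraries) carried a short hairpin RNA against PRMT9, a protein arginine methyltransferase, and the labels give its genotype as PRMT9 knockdown. The control shRNA group (2 libraries) carried a control hairpin, and its genotype is given as WT. Doxycycline was given in both groups to induce the hairpins, so no library shows the cells without it. The labels do not say whether libraries 1 and 2 of a group come from separate cultures, from different hairpins or from 1 culture as technical repeats, so p-values and SDs cover only the spread between these libraries.

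Alpha- and beta-tubulin form the dimer from which microtubules grow, and gamma-tubulin sits in the ring complex that starts new microtubules. Stathmin holds dimers away from the polymer and promotes its shortening, and dividing blood cells and leukaemia cells are known for high stathmin levels. Cells also tune tubulin synthesis to the pool of free dimers: when free dimers are in excess, TTC5 recognises the first residues of the nascent tubulin chain and the mRNA on that ribosome is degraded.

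That recognition depends on the start of the coding sequence, which is shown here for every member because it separates the alpha- and beta-tubulin genes, whose nascent chains are read in this way, from TUBG1 and STMN1. Each line gives the first 30 coding bases of the principal GENCODE release 29 transcript on GRCh38, 5′ to 3′ on the coding strand, with the first 4 codons in capitals.
TUBA1A: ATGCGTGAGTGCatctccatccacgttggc
TUBA1B: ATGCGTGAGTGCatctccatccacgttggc
TUBA1C: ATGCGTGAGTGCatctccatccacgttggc
TUBA4A: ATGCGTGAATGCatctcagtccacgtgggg
TUBB: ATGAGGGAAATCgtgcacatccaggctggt
TUBB2A: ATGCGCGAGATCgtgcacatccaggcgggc
TUBB4B: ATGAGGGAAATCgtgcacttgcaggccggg
TUBB6: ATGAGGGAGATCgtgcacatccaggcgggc
TUBG1: ATGCCGAGGGAAatcatcaccctacagttg
STMN1: ATGGCTTCTTCTgatatccaggtgaaagaa
The principal transcripts of the alpha and beta genes have 4 exons each, that of TUBG1 has 11 and that of STMN1 has 5. In TUBA1A, TUBA1B and TUBA1C all 30 bases are the same. The counts of TUBA1A and TUBA1B moved in opposite directions in these libraries, though reads of these genes can be hard to place. What part the coding start had in these changes was not tested. Over the whole coding sequence TUBA1A and TUBA1B are 97.2% identical, TUBA1B and TUBA1C 96.8%, and TUBA1A and TUBA1C 95.9%. The beta-tubulin genes are less alike, from 81.2% between TUBB and TUBB6 to 87.3% between TUBB2A and TUBB4B.

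The libraries held 28592902 to 33845172 counts. PRMT9 itself had 81 and 78 counts in the PRMT9 shRNA libraries, against 398 and 406 in the control shRNA libraries, or 17.9% of the control level (log2 fold change -2.48, SE 0.12, edgeR adjusted p = 5.24e-13). All 9 myeloid markers examined were expressed, and their summed level was 2480 to 2482 CPM (counts per 1000000 counts of the TMM-scaled library) in the PRMT9 shRNA libraries and 1762 to 1777 CPM in the control shRNA libraries. Of these 9 markers 8 rose and MPO fell, and the part of this shift in the tubulin results was not tested. The epithelial, lymphoid and erythroid or megakaryocytic markers were at or near 0, with summed levels of at most 0.38 CPM in any library. The fibroblast markers summed to 1.20 to 1.86 CPM after PRMT9 knockdown and 0.49 to 0.50 CPM in the controls, with PDGFRB called higher at no more than 41 counts in a library, and their part was not tested either. Of the neuronal markers SNAP25 alone passed the filter, with no called change, while STMN2 and RBFOX3 had no count and TUBB3 had at most 2 counts in a library.

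Most tubulin RNA was lower after PRMT9 knockdown, at 62.8% to 72.7% of the control level in the alpha and beta genes that fell, while TUBG1 fell further and TUBA1A rose. Of the 10 members, 9 passed the filter on low counts. In edgeR's quasi-likelihood test over 15193 genes, with a call at a Benjamini-Hochberg adjusted p below 0.05, 8 members fell and 1 rose. Over all tested genes 34.5% fell and 33.4% rose, 67.9% in all, so a call as such says little in this comparison. The median log2 fold change (PRMT9 shRNA over control shRNA) of the 9 members was -0.55, and that of all tested genes was 0.00. In all 9 tested members the CPM of the 2 groups did not overlap, as in 83.3% of tested genes. The groups did not overlap in the untested TUBB2A either, but it had only 4 to 12 counts in a library. These are values of bulk RNA, in which fewer cells of a type and less RNA per cell cannot be told apart.

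**Figure D1:**
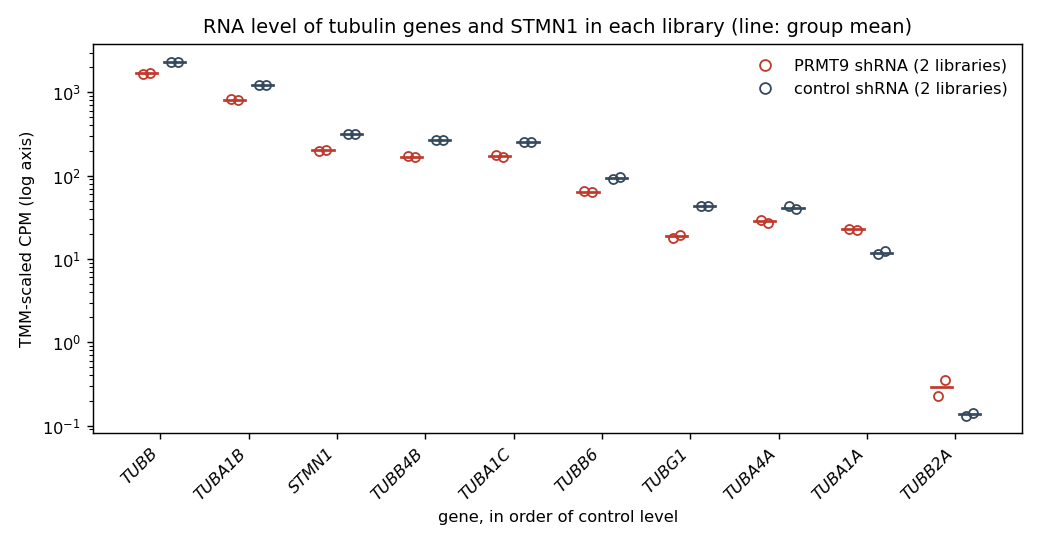
RNA level of each member in each library, in TMM-scaled CPM on a log axis, with PRMT9 shRNA libraries left of control shRNA libraries and a line at each group mean; CPM is not per length. The 8 members that fell lie below their controls with little spread between libraries, and TUBA1A and the very low TUBB2A lie above theirs.

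TUBB, the main beta-tubulin gene of these cells (ENSG00000196230, chr6:30720201-30725426, plus strand, GRCh38), was the most abundant member per length. Its level was 1673 and 1703 CPM in the PRMT9 shRNA libraries, against 2312 and 2331 CPM in the control shRNA libraries. Both knockdown libraries were lower, at 72.7% of the level in the controls (95% confidence interval 70.8% to 74.7%), a log2 fold change of -0.46 (SE 0.02, edgeR adjusted p = 3.34e-14). TUBB4B (ENSG00000188229, chr9:137241213-137243707, plus strand), a widely expressed beta isotype, had 172.2 and 165.2 CPM after PRMT9 knockdown, against 269.3 and 267.4 CPM in the controls. It fell by 0.67 on the log2 scale (adjusted p = 1.74e-14), the largest fall among the alpha and beta genes, to 62.8% of the control level (60.6% to 65.2%).

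TUBB6 (ENSG00000176014, chr18:12307669-12344320, plus strand) encodes a more divergent beta isotype. Its level was 65.1 and 62.9 CPM in the PRMT9 shRNA libraries and 91.7 and 95.5 CPM in the control shRNA libraries, a fall of 0.55 on the log2 scale (edgeR adjusted p = 5.00e-11). TUBB2A (ENSG00000137267, chr6:3153669-3157526, minus strand), an isotype best known from brain, was near the limit of detection, with 7 and 12 counts in the PRMT9 shRNA libraries and 4 and 4 in the controls. It did not pass the filter, and in the fit without a filter its log2 fold change of 1.07 was not called (adjusted p = 0.298).

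TUBA1B (ENSG00000123416, chr12:49127782-49131397, minus strand) supplied most alpha-tubulin RNA. It had 819.7 and 805.6 CPM in the PRMT9 shRNA libraries, against 1212 and 1230 CPM in the control shRNA libraries. Both knockdown libraries lay well below the controls, at 66.6% of their level (64.7% to 68.4%), which is a log2 fold change of -0.59 (SE 0.02, edgeR adjusted p = 2.37e-15). TUBA1C (ENSG00000167553, chr12:49188736-49274603, plus strand), its near-identical neighbour, had 178.8 and 169.2 CPM after knockdown and 255.0 and 254.2 CPM in the controls, a log2 fold change of -0.55 (adjusted p = 7.60e-13). TUBA4A (ENSG00000127824, chr2:219249711-219278170, minus strand), an isotype prominent in platelets, had 29.5 and 27.2 CPM after knockdown against 43.1 and 39.4 CPM in the controls, a log2 fold change of -0.54 (adjusted p = 6.38e-08).

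TUBA1A (ENSG00000167552, chr12:49184796-49189324, minus strand), the alpha-tubulin gene known for its high level in developing neurons, was the one member that rose. Its level was 23.0 and 22.5 CPM in the PRMT9 shRNA libraries, against 11.5 and 12.3 CPM in the control shRNA libraries. The raw counts were 710 and 764 after knockdown and 347 and 349 in the controls. Both knockdown libraries thus lay near 191% of the control level (172% to 213%), and the log2 fold change reached 0.94 (SE 0.07, edgeR adjusted p = 1.07e-09). Among tested genes 88.6% had a lower log2 fold change.

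Reads of these genes can be hard to place. In TUBA1A 51.8% of the 50-base windows of the principal transcript also occur in transcripts of other genes. Of all its windows 35.3% occur in TUBA1C and 32.6% in TUBA1B. The share in any other gene was 87.1% for TUBA1B, 65.5% for TUBB2A, 40.1% for TUBA1C, 32.6% for TUBA4A, 30.8% for TUBB, 14.6% for TUBB4B, 0.993% for TUBB6 and 0 for STMN1. Windows were matched on both strands, so these shares take in genes that overlap on the opposite strand at the same place. Of all TUBA4A windows 27.4% occur in STK16, and of all TUBB windows 18.7% occur in AL662797.1, both of that kind. Such overlap is a matter of strand rather than of several genomic positions. For TUBA1B the gene with most of the shared windows is AC011603.2, also on the opposite strand at the same place, with 68.7% of all TUBA1B windows. How the authors counted reads with several matches is not given in the sources used here, so the split among the 3 genes is uncertain. TUBA1B and TUBA1C, the genes with which TUBA1A shares most windows, both fell. TUBA1A and TUBA1C also share 490 exon bases on opposite strands, and whether counting used strand is not given. AC011603.2 is antisense to TUBA1B, shares 1309 exon bases with it and had 34 and 64 counts in the PRMT9 shRNA libraries and 205 and 72 in the controls, far below the counts of TUBA1B. AL662797.1, antisense to TUBB over 538 exon bases, had 11 and 39 counts after knockdown and 167 and 64 in the controls, and neither antisense gene was called (edgeR adjusted p = 0.194 and 0.129). TUBA4A shares 627 exon bases with STK16 on the opposite strand, which was not called (log2 fold change 0.03). TUBB6 shares 837 with AFG3L2, also on the opposite strand, which fell by 0.55, as much as TUBB6 itself. Without strand, reads of these genes cannot be told apart where they overlap, whatever the changes of the genes. The 42 tubulin and stathmin pseudogenes found by symbol had 65 and 57 counts in sum after knockdown and 82 and 63 in the controls, with TUBBP1 the largest at 32 to 56 counts in a library.

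TUBG1 (ENSG00000131462, chr17:42609676-42615234, plus strand), which encodes the main gamma-tubulin, had the largest fall of the members. It had 17.9 and 19.4 CPM in the PRMT9 shRNA libraries, against 43.7 and 43.4 CPM in the control shRNA libraries. The level after knockdown was 42.8% of the control level (39.5% to 46.4%), a log2 fold change of -1.22 (SE 0.05, edgeR adjusted p = 2.50e-13). Of all tested genes 1.99% had a lower one. Its interval lies below those of the other 8 tested members. Of all TUBG1 windows 30.3% occur in other genes and 29.1% in its close relative TUBG2, which had 2.55 and 3.06 CPM after knockdown and 1.88 and 2.12 CPM in the controls. RETREG3, a gene on the opposite strand that shares 139 exon bases with TUBG1, rose by 0.65 on the log2 scale (adjusted p = 5.31e-10).

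STMN1 (ENSG00000117632, chr1:25884181-25906991, minus strand) encodes stathmin, and it fell. Its level was 199.8 and 204.2 CPM in the PRMT9 shRNA libraries, against 317.0 and 312.5 CPM in the control shRNA libraries. The log2 fold change of -0.64 (SE 0.02, edgeR adjusted p = 1.02e-14) left 64.2% of the control level (62.1% to 66.4%). None of its windows occurs in another gene's transcript. STMN3, a stathmin relative known mainly from neurons, went the other way, with 13.5 and 13.7 CPM after knockdown against 6.84 and 5.68 CPM in the controls, a log2 fold change of 1.11 (adjusted p = 8.60e-09).

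**Figure D2:**
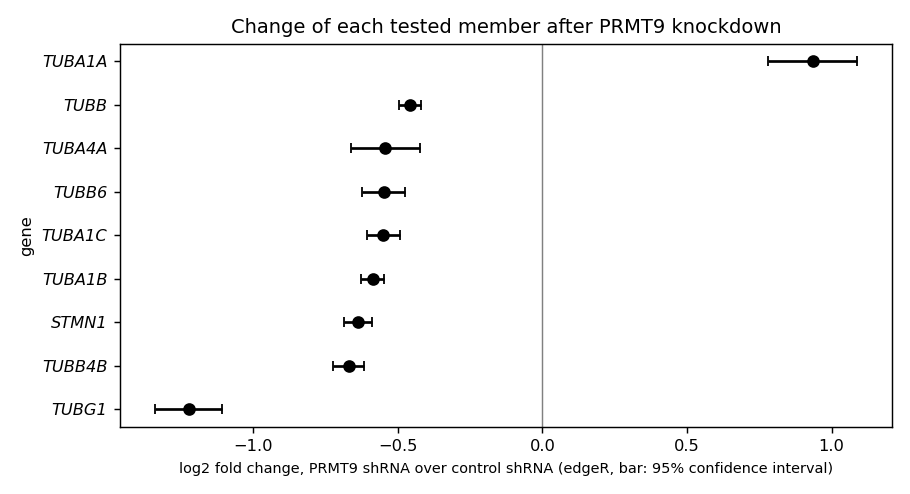
Log2 fold change, PRMT9 shRNA over control shRNA, of the 9 tested members, with 95% confidence intervals from the edgeR fit. TUBA1A lies at 0.94, 7 members lie between -0.67 and -0.46, and TUBG1 lies at -1.22.

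Promoter letters were compared in the 250 bases before each RefSeq start (GRCh38.p14), for 16 windows of the 10 members, all of which matched by symbol, and 35116 windows of all genes. A form of the binding sequence of E2F factors, TTTGGCGC, searched on both strands, occurred in 2 of the 16 windows and in 0.550% of all windows. The windows belong to TUBG1 and STMN1, the 2 members with a match, and both sites are printed here. A link between this match and the falls was not tested. Capitals mark the match, which starts 31 bases before the TUBG1 start (chr17:42609641-42609670, plus strand) and 38 bases before one of 3 STMN1 starts (chr1:25906439-25906468, minus strand).
TUBG1: ggagctggttgTTTGGCGCctgcgtcttgc
STMN1: acgtgcctctgTTTGGCGCttttgtgcgcg
The CCAAT box, which often lies in promoters of genes active in proliferating cells, was found in 9 of the 16 windows and in 11240 of the 35116 windows of all genes, again on both strands. GGGCGG, the core of the Sp1 site, was found in 10 of 16 windows and in 42.6% of all. The cell cycle element letters TTTGAA were in 3 of 16 windows (13.3% of all), and TTCGAA and TTTCGCGC were in 0 of 16 (1.19% and 0.439% of all). Windows of one gene can overlap, and a match of letters is not evidence of binding. Many windows also run over exons of other transcripts of the same gene, by 244 of the 250 bases in TUBA1A, by 47 in the STMN1 window with the printed site and by 7 in that of TUBG1. TUBA1A, the member that rose, has CCAAT matches that start 125 and 88 bases before its start, on opposite strands, and no GGGCGG. TUBB4B, which fell, likewise has CCAAT matches and no GGGCGG. TUBA1B, which also fell, has 3 GGGCGG matches, a pair of which overlap, and no CCAAT. TUBA1C, TUBB, TUBB6, TUBG1 and STMN1 have matches of both and fell, so these letters do not separate the member that rose from those that fell.

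Levels of different genes were compared per length, first in the RPKM deposited by the authors. In the PRMT9 shRNA libraries TUBB averaged 502 ± 6.94 RPKM (SD, n = 2), TUBA1B 227 ± 2.42, TUBB4B 79.8 ± 2.21, TUBA1C 37.5 ± 1.41 and STMN1 32.1 ± 0.551. In the control shRNA libraries the same genes averaged 691 ± 15.9, 342 ± 9.41, 127 ± 1.54, 55.0 ± 0.828 and 50.1 ± 0.353 RPKM. By the mean over the 4 libraries TUBB ranked 49th and TUBA1B 105th of all genes in the table. At the low end of the order TUBG1 (7.71 ± 0.461), TUBA4A (6.94 ± 0.393) and TUBA1A (6.63 ± 0.0831) lay close together after knockdown, and the libraries of TUBA4A and TUBA1A overlapped. In the controls the same 3 genes were apart, at 18.1 ± 0.209, 10.1 ± 0.468 and 3.48 ± 0.234 RPKM. The deposited RPKM divides by all exon bases of a gene, 6288 for STMN1, which takes in the exons of all its transcripts. Per kilobase of the principal transcript, of 1712 bases, STMN1 had 116.7 and 119.3 CPM after knockdown and 185.2 and 182.5 CPM in the controls, above TUBB4B (105.2 and 100.9 against 164.5 and 163.3) rather than below it.

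Summed alpha- and beta-tubulin RNA was lower relative to all RNA after knockdown. In the deposited RPKM the share of any isotype differed by at most 1.83 percentage points, and that of TUBA1A was 2.81 times the control share. With the length of the principal transcript the TUBB share differed by 1.88 percentage points. Summed over all alpha-tubulin genes, RNA was 281 and 275 RPKM in the PRMT9 shRNA libraries, against 403 and 418 RPKM in the control shRNA libraries. The beta-tubulin sum was 594 and 600 RPKM after knockdown, against 828 and 854 RPKM in the controls. Both sums were thus lower in each knockdown library, at 67.8% and 71.0% of the control mean. The ratio of the beta sum to the alpha sum was 2.11 and 2.18 after knockdown and 2.05 and 2.05 in the controls. Its size depends on the gene length used: with the length of the principal transcript it was 1.296 and 1.336 after knockdown and 1.255 and 1.251 in the controls. An exact permutation test over 2 against 2 libraries, two-sided, cannot give a p below 0.333, and it gave that value for both sums, for the ratio and for the shares of TUBA1A, TUBA1B, TUBB and TUBB4B.

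TUBA1A made up 2.38% and 2.39% of alpha-tubulin RPKM in the PRMT9 shRNA libraries, against 0.821% and 0.873% in the control shRNA libraries. TUBA1B took 81.3% and 81.9% after knockdown and 83.1% and 83.4% in the controls, so its share was lower in both knockdown libraries by a small amount. TUBA1C took 13.7% and 13.3% after knockdown and 13.5% and 13.3% in the controls, and these overlapped. Among the beta genes TUBB took 83.6% and 84.4% after knockdown and 82.1% and 82.2% in the controls. The share of TUBB4B was 13.7% and 13.0% after knockdown and 15.2% and 15.0% in the controls, and for both genes the groups did not overlap. STMN1 RPKM divided by the summed alpha and beta RPKM was 0.0362 and 0.0371 after knockdown and 0.0404 and 0.0396 in the controls, lower in both knockdown libraries (exact permutation p = 0.333). With the length of the principal transcript the same ratio was 0.0862 and 0.0887 after knockdown and 0.0959 and 0.0937 in the controls.

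**Figure D3:**
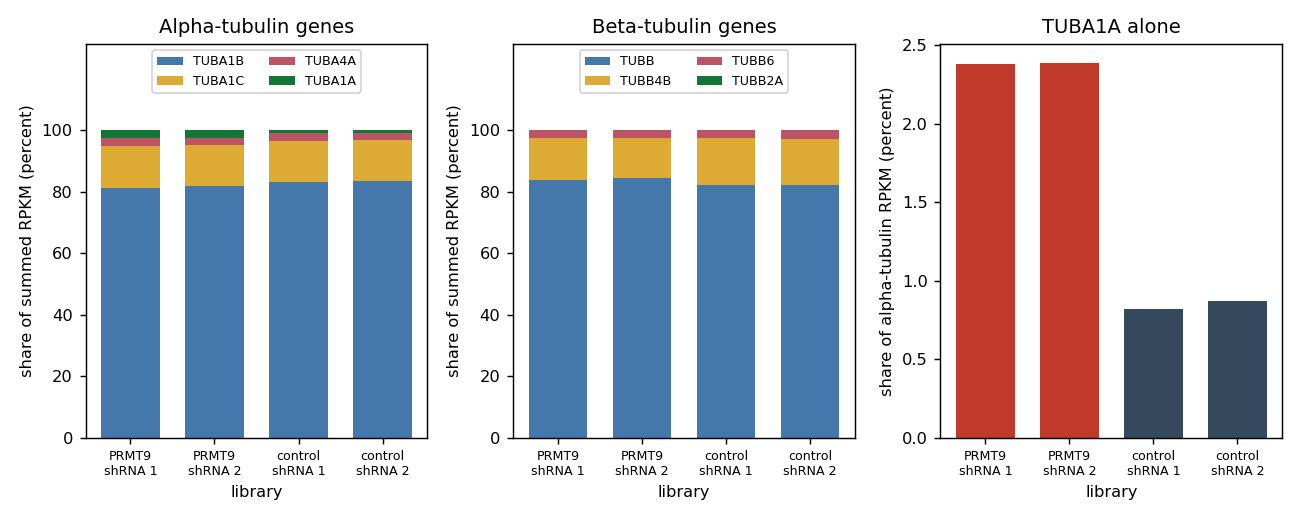
Share of each gene in the summed RPKM of alpha-tubulin genes (left) and beta-tubulin genes (middle), in percent by library, and the share of TUBA1A alone (right) on its own axis from 0. TUBA1B and TUBB take over 81% of their sums in every library, and TUBA1A takes 2.38% and 2.39% in the PRMT9 shRNA libraries, against 0.821% and 0.873% in the controls.

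Of 16 other tubulin and stathmin genes 7 had no count in any library and 5 passed the filter. Of these 5, 2 rose, 2 fell and TUBA8 was not called (median log2 fold change -0.03), beside 33.4% rises and 34.5% falls over all tested genes. TUBE1 and TUBD1 encode the epsilon- and delta-tubulins of centrioles. TUBE1 had 17.3 and 16.5 CPM in the PRMT9 shRNA libraries against 31.1 and 32.2 CPM in the controls (log2 fold change -0.91, edgeR adjusted p = 8.05e-11), and TUBD1 fell by 0.48. TUBG2 and STMN3 rose, but the call on TUBG2 (0.49, adjusted p = 0.0359) was lost in 6 of 15 alternatives, among them DESeq2 and the fits without control shRNA replicate 1 and without PRMT9 shRNA replicate 2 (highest adjusted p = 0.276). The testis, brain and platelet isotype genes TUBA3C, TUBA3D, TUBB2B, TUBB3, TUBB4A and TUBB1 had at most 6 counts in any library.

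Tubulin folds in 2 steps, first in the CCT chaperonin, to which prefoldin delivers it, and then on cofactors that assemble the dimer. The 8 CCT subunit genes had a median log2 fold change of -0.43, with 7 called lower and 1 higher. The shares over all tested genes were 34.5% lower and 33.4% higher. CCT6A had 217 and 218 CPM after knockdown against 530 and 544 CPM in the controls (-1.30, edgeR adjusted p = 2.67e-19), CCT5 and TCP1 fell by 0.61 each and CCT3 by 0.49, and CCT8 rose by 0.16. The 13 folding cofactor and prefoldin genes had 6 rises, 6 falls and a median of -0.12, and all tested genes also divided nearly evenly. PFDN2 and VBP1, both prefoldin subunits, fell by 0.61 and 0.57. PFDN5 of the same complex rose by 0.33, and ARL2, a small GTPase that works with the cofactors, rose by 0.52. Several of these changes are small, and DESeq2 called 6 of the 13 rather than 12.

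Genes that place and start microtubules largely fell beside TUBG1. Of 18 genes of the gamma-tubulin complex and of augmin, which branches spindle microtubules, 12 fell, 1 rose and 5 were not called (median log2 fold change -0.41). Among all tested genes 34.5% fell and 33.4% rose, 67.9% in all. NEDD1, which recruits the gamma-tubulin ring to centrosomes and the spindle, had 26.3 and 26.3 CPM in the PRMT9 shRNA libraries against 57.0 and 55.8 CPM in the control shRNA libraries (-1.10, edgeR adjusted p = 9.92e-14). MZT1, a small ring component, fell by 0.93, and the augmin genes HAUS6 and HAUS2 fell by 0.57 and 0.48. TUBGCP2, a core ring subunit gene, was the one that rose, with 137.1 and 136.9 CPM after knockdown against 104.6 and 110.3 CPM in the controls (0.35, adjusted p = 3.62e-09).

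Enzymes that edit tubulin after synthesis moved in both directions, as tested genes did in general. Of 21 genes of autoregulation and tail modification 18 were tested, 9 rose, 3 fell and 6 were not called (median log2 fold change 0.22). Because 33.4% of all tested genes rose and 34.5% fell, 67.9% in all, the number called by itself says little about this list. TTL, which adds back the terminal tyrosine of alpha-tubulin, had 11.2 and 10.8 CPM after knockdown against 29.3 and 30.4 CPM in the controls (-1.44, edgeR adjusted p = 4.91e-13). VASH1, which removes that tyrosine, had 57.5 and 52.8 CPM after knockdown against 33.5 and 32.1 CPM in the controls (0.75, adjusted p = 1.24e-10). The tubulin deacetylase gene SIRT2 rose by 0.90, and HDAC6, chosen after its value was seen, by 0.53. Among the ligase genes of the TTL family TTLL3 rose by 0.90, and TTLL4 and TTLL5 fell by 0.79 and 0.20. TTC5, the factor that reads nascent tubulin, also chosen after its value was seen, had 19.3 and 17.5 CPM after knockdown and 19.9 and 20.3 CPM in the controls, which was not called (-0.13, adjusted p = 0.113). SCAPER, listed with TTC5 for autoregulation and likewise chosen after its value was seen, was called higher (0.30, edgeR adjusted p = 0.000269).

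Proteins that stabilise microtubules and proteins that shorten them were both mostly lower in RNA. Of 27 tested stabiliser genes 16 fell, 8 rose and 3 were not called (median log2 fold change -0.28). The background for both lists was 34.5% falls and 33.4% rises over all tested genes. CLIP1, a plus-end binding protein gene, fell by 0.95, the spindle genes TACC3 and NUSAP1 by 0.78 and 0.66, and TACC1 by 0.85. Among the 8 that rose, named after their values were seen, MAP7, a gene of a microtubule-binding protein, had 10.9 and 10.8 CPM after knockdown against 3.60 and 3.63 CPM in the controls (1.58, edgeR adjusted p = 1.77e-10). CLIP2 rose by 1.08 and NUMA1, which anchors spindle poles, by 0.61. Of 10 tested severing and depolymerising genes 8 fell and none rose (median -0.34). In the same edgeR fit KATNAL2 (-0.10, adjusted p = 0.12) and KATNAL1 (-0.02, adjusted p = 0.822) were not called, and the sign of KATNAL1 reversed in 4 of 15 alternatives. KIF2A, a kinesin that removes subunits from microtubule ends, had 38.3 and 38.3 CPM after knockdown against 81.0 and 80.3 CPM in the controls (-1.08, edgeR adjusted p = 1.33e-14). KIF24 fell by 0.93, FIGNL1 by 0.64 and KIF2C by 0.37.

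Stathmin is switched off by phosphorylation. Of the 10 tested genes of kinases known to act on it, 5 rose and 5 fell (median log2 fold change -0.11). Since 33.4% of all tested genes rose and 34.5% fell, this even division by itself says little about these kinases. The cell cycle kinase genes CDK2 and CDK1 fell by 0.82 and 0.66, with CDK1 at 105.5 and 108.1 CPM after knockdown against 170.0 and 168.3 CPM in the controls. PRKACB, a catalytic subunit gene of protein kinase A, rose by 0.79 (edgeR adjusted p = 1.02e-14).

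**Figure D4:**
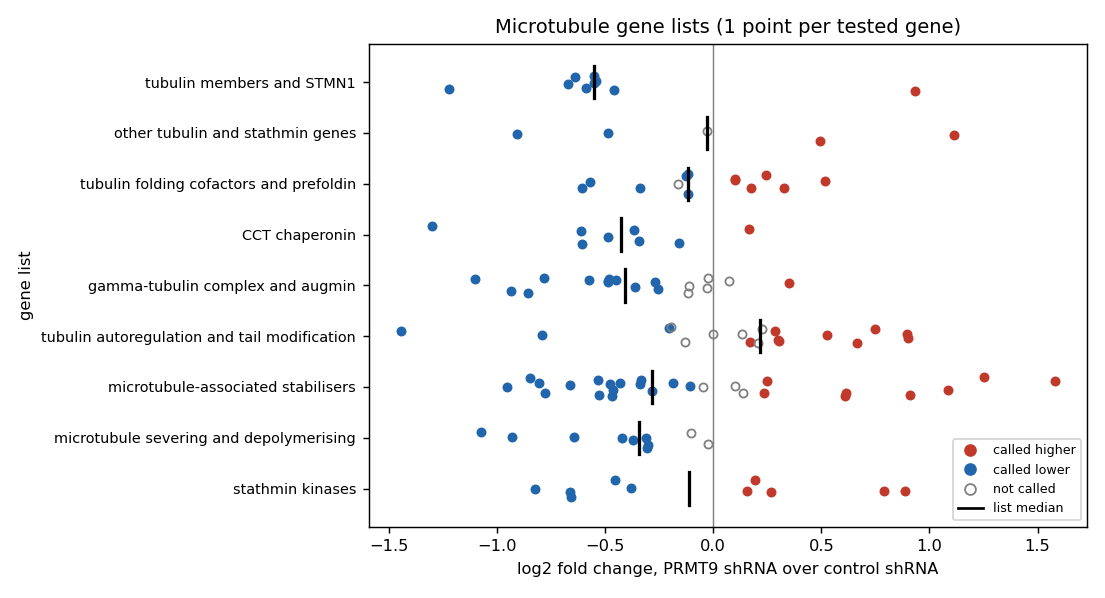
Log2 fold change, PRMT9 shRNA over control shRNA, of every tested gene of the tubulin and stathmin members and of 8 lists of related genes, 1 point a gene, with a line at each list median. The members' median of -0.55 is the lowest of the lists drawn, and the list of autoregulation and tail modification is the one with a median above 0, at 0.22.

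The genes with profiles most like those of TUBA1B, TUBB and STMN1 were named by the smallest root mean square distance between log2 CPM profiles over the 4 libraries, each centred on its mean. For TUBA1B these were PDAP1 (distance 0.0036 on the log2 scale), LYSMD2 and IPO9, for TUBB they included CDCA7 and SLC25A13, and for STMN1 SGO2, NQO1 and C7orf26. With 4 libraries in 2 groups the measure mainly matches the size of the group difference, and 1748, 2299 and 1519 of the 15193 tested genes lay within a distance of 0.1 of TUBA1B, TUBB and STMN1.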

How the data were processed

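Poly(A) RNA was sequenced in 4 libraries, 2 with PRMT9 shRNA and 2 with control shRNA. The authors deposited raw read counts per gene on GRCh38. An RPKM value for each gene was also deposited by the authors. Per the submitters' processing notes, Trimmomatic 0.39, STAR 2.7.2a and SAMtools 1.10 were used, with no roles given. Which program counted the reads, whether it used strand, how it treated reads with several matches and with which annotation: none of these is stated in the sources at hand.

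Counts were filtered with filterByExpr (minimum count 10, 15193 of 57992 genes kept) and tested with edgeR 4.0.16 in R 4.3.3 (TMM, group term, robust quasi-likelihood F test, Benjamini-Hochberg adjustment over all genes tested). The SE is the size of the log2 fold change over the square root of F. The fit was tested on simulated data. Alternatives used limma 3.58.1, with pseudocounts of 1 and 0.1 on RPKM with a mean of at least 0.5, and DESeq2 1.42.0. Shared 50-base windows, coding starts and overlaps come from GENCODE release 29, and promoters from RefSeq. Identity was taken from global alignments in Biopython 1.88.

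The members, gene lists and naming rule (per list, up to 4 called genes with the lowest adjusted p, and those called against the list median where there are 3 or fewer) were chosen with earlier results of these data known. Replicates of a group differed by more than counting noise (chi-square per degree of freedom 1.57 for PRMT9 shRNA and 2.84 for control shRNA). A gene that the naming rule selects is not reported here.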

Additional observations from a re-analysis of the deposited data

How the results depend on the processing

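In each of 15 alternatives (other scalings, other filters, DESeq2, limma-voom, edgeR without robust estimation, limma on both forms of log2 RPKM, the replicate number as a block, and each library left out) 8 members were called lower and 1 higher. The log2 fold change of TUBA1A ranged from 0.77 to 1.02 over them, that of TUBB from -0.47 to -0.37 and that of TUBG1 from -1.28 to -1.13. The call count of folding cofactor and prefoldin genes was 6 with DESeq2, and 9 to 10 when a library was left out. DESeq2 called 7949 genes in all. With the replicate block 10243 genes were called against 10313 without it, and deviations of same-numbered libraries had a correlation of -0.03, so the numbers were not taken as pairs. Upper-quartile scaling moved the median of all genes by 0.09 and gave 5915 rises and 4440 falls. The TUBA1A share differed by 1.51 to 1.56 percentage points with a library left out, against 1.54 with all, and by 1.41 in CPM and 1.32 with the length of the principal transcript, an alternative chosen after seeing the data. The TUBA1C share has no stable sign (-0.13 to 0.29 percentage points with a library left out).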
